A study of Mus musculus with 2 samples.

Results

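Actin filaments are built from a pool of actin monomers by a conserved set of proteins, and 54 mouse genes that encode the actins and these proteins were described across a total RNA-seq experiment. The members were a named list of gene symbols covering the actins, the proteins that bind or recycle monomers, nucleators and their activators, elongation factors, capping and severing proteins, crosslinkers, tropomyosins and membrane linkers. Each symbol was matched to its row of the gene tables, and all 54 were found among the 42462 Ensembl genes with a symbol, of which 21474 are annotated as protein-coding. The rule that selects them uses names and no measured value, but the list was chosen with earlier results of these data known.

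In a cell, profilin and thymosin beta 4 hold most of the unpolymerized actin, and cofilin cuts old filaments so that their subunits return to this pool. New filaments start either as branches on existing ones, made by the Arp2/3 complex when a WASP or WAVE protein activates it, or as unbranched filaments made by formins. Capping protein ends growth, plastins, alpha-actinins and filamin tie filaments together, and tropomyosins coat them and decide which other proteins can bind. Megakaryocytes, the marrow cells that release platelets, use these proteins to form the membrane extensions from which platelets are shed, and leukocytes use them to crawl and to engulf particles.

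The study measured 1 group, the megakaryocyte progenitor (CFU-Meg, the cell that founds a colony of megakaryocytes), in 2 libraries of primary cells from male, adult C57BL/6J mice aged 5 to 6 weeks. The labels name no mutation and no treatment, and the gate used to isolate the cells is not described in them. Each library was made from 1 ng of RNA of its own biosample, but both biosamples carry 1 donor identifier, so the spread between replicates 1 and 2 may be smaller than that between animals. There was no contrast to test, so values are given for each library, in TPM, a level that is corrected for transcript length and sums to a fixed total in each library, or as mean ± SD (n = 2).

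Replicate 1 held 82746658 and replicate 2 held 75652762 expected counts, the reads that the quantifier assigned to genes. Mitochondrial genes took 26.8% and 28.8% of them, and Gm42418, an annotated locus that carries ribosomal RNA sequence, took 23.4% and 20.8%. The labelled cell type was checked against its markers. Of 12 megakaryocyte and platelet markers, 2 (Itga2b and Vwf) reached 1 TPM in both libraries. Their summed level was 11.5 and 7.08 TPM, and Tubb1 was at a count of 0 in both. All 8 granulocyte markers reached 1 TPM in both libraries, with summed levels of 15711 and 16357 TPM. So did 5 of 7 monocyte markers, and that whole list summed to 2848 and 3233 TPM. Nearly all of this was Ly6c2, at 2767 and 3120 TPM, while Ccr2 had 31.1 and 42.3 TPM and Csf1r 14.4 and 19.1 TPM. The erythroid list summed to 542 and 273 TPM, with 5 of 7 markers at 1 TPM in both. None of 5 lymphocyte markers reached 1 TPM in both libraries, and 3 were at a count of 0. In the list for smooth muscle, fibroblasts and endothelium, 2 of 10 markers (Pecam1 and Pdgfrb) did, and Col1a1, Col3a1 and Cdh5 were at 0. The markers therefore went against the label, and the cells are called here the libraries labelled megakaryocyte progenitor. In such bulk samples a smaller number of cells of a type and less RNA per cell cannot be told apart.

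Nearly the whole actin gene set was present in both libraries. A level of 1 TPM or more in both was reached by 53 of the 54 members (98.1%), against 26.0% of all named genes and 46.2% of protein-coding genes. The exception was Tpm2, a tropomyosin best known from muscle, at 1.23 TPM in replicate 1 and 0.29 TPM in replicate 2. Of 75 other genes of the pathway, outside the list, 42 (56.0%) reached 1 TPM in both. At 10 TPM or more in both stood 44 members (81.5%, against 24.1% of protein-coding genes), and at 100 TPM or more stood 17 (31.5%, against 2.58%). The median member lay at 35.3 TPM, compared with 0.585 TPM for the median protein-coding gene.

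The members together held 7502 TPM in replicate 1 and 8366 TPM in replicate 2, which was 0.793% ± 0.061 of all TPM. With Gm42418 and the mitochondrial, small RNA, spike-in and numerically named rows left out, they held 1.74% ± 0.12 of TPM. Most of this sum came from few genes. Monomer binding and turnover proteins took 37.4% ± 0.8, the actins 26.8% ± 0.3 and the Arp2/3 complex 14.9% ± 0.1 of the members' TPM. Capping and severing proteins held 5.63%, crosslinkers 4.39%, tropomyosins 3.12%, coronins 2.63% and the membrane linkers of the ezrin, radixin and moesin (ERM) family 2.05%. The formins held 1.27%, the activators of the Arp2/3 complex with Wipf1, which binds Was, 1.25%, and Ena/VASP proteins 0.332%. The kinases and phosphatase that act on cofilin held 0.191%.

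**Figure D1:**
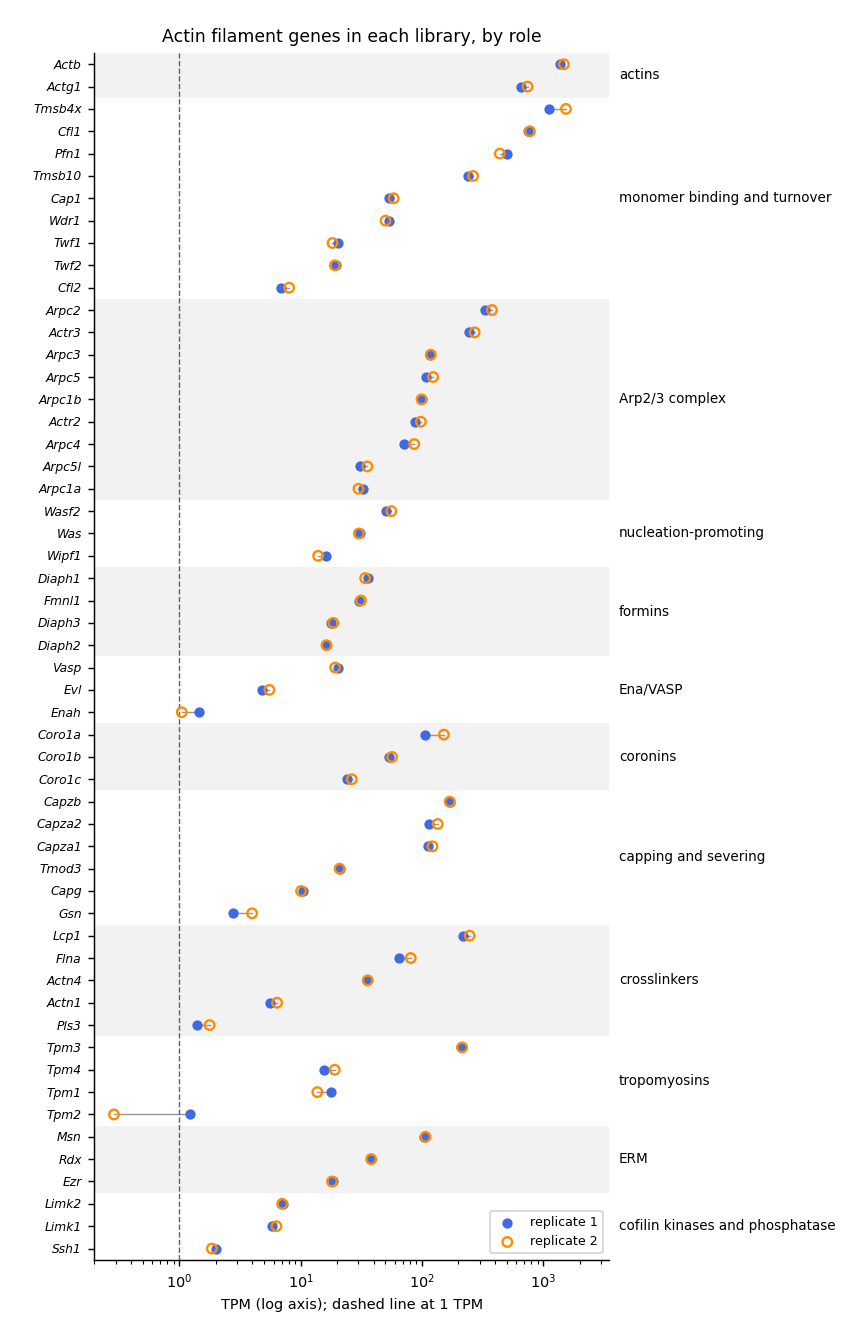
Level of each of the 54 genes in each library, in TPM on a log axis, grouped by role and ordered by mean within a role. Filled points are replicate 1 and open points replicate 2; Actb lies highest at 1367 and 1482 TPM in its group, and Tpm2 in replicate 2 (0.29 TPM) is the 1 point left of the dashed line at 1 TPM.

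The 2 cytoplasmic actins were both among the most abundant messages. Actb (beta-actin, ENSMUSG00000029580.10, GRCm38 chromosome 5, 142903115 to 142906754, minus strand) stood at 1367 TPM in replicate 1 and 1482 TPM in replicate 2. Actg1 (gamma-actin, ENSMUSG00000062825.11, chromosome 11, 120345690 to 120348542, minus strand) stood at 661 and 743 TPM. Each was slightly higher in replicate 2, and Actb exceeded Actg1 by 2.07 and 1.99 times. The proteins differ in a few residues near the amino terminus, while their messages also differ at many silent positions. The aligned coding sequences were identical at 997 of 1125 bases (88.6%), and 1.60% of the 50-base windows of the Actb transcript occurred in Actg1. Their first 60 coding bases, from the start codon, show how the pair can be told apart; capitals mark the 9 positions that differ.
Actb: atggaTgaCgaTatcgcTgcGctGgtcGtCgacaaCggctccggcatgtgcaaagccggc
Actg1: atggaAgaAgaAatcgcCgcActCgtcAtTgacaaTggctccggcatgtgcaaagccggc

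The muscle actins, which are not members, were close to absent. Acta1 (skeletal), Actc1 (cardiac) and Actg2 (enteric smooth muscle) were at a count of 0 in both libraries. For Acta1, 3 reads would have given 0.037 and 0.040 TPM, which is no strict limit because reads shared with other actins are divided among them. Acta2, the vascular smooth muscle actin, stood at 0.08 and 0.33 TPM.

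Among the proteins that bind monomers, Tmsb4x was the most abundant, at about the level of Actb. Tmsb4x (thymosin beta 4, ENSMUSG00000049775.12, chromosome X, 167207093 to 167209315, minus strand) reached 1118 TPM in replicate 1 and 1541 TPM in replicate 2. Tmsb10 (thymosin beta 10, ENSMUSG00000079523.4, chromosome 6, 72957347 to 72958748, minus strand) reached 240 and 264 TPM. Tmsb4x was clearly higher in replicate 2 and Tmsb10 a little higher there, so that their ratio moved from 4.67 to 5.83. The 2 thymosins together held 0.670 TPM per TPM of actin in replicate 1 and 0.812 in replicate 2. Both encode very short proteins whose messages diverge, and the part of the reading frames that aligns without gaps is shown, coding bases 25 to 150 of Tmsb4x and 7 to 132 of Tmsb10, with the 38 differing positions of 126 in capitals.
Tmsb4x: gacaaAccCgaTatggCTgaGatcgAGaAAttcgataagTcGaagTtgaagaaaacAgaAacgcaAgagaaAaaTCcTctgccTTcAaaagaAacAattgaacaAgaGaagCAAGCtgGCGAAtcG
Tmsb10: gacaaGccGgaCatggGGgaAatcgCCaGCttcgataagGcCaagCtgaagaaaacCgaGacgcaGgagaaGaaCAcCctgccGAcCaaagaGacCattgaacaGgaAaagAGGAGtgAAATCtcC

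Profilin and cofilin followed. Pfn1 (profilin 1, which loads monomers onto growing ends; ENSMUSG00000018293.4, chromosome 11, 70651850 to 70654644, minus strand) stood at 501 TPM in replicate 1 and 439 TPM in replicate 2. It was lower in replicate 2 while both actins were higher, and held 0.247 and 0.197 TPM per TPM of actin. Cfl1 (cofilin 1, the severing factor of non-muscle cells; ENSMUSG00000056201.6, chromosome 19, 5490455 to 5495201, plus strand) stood at 752 and 776 TPM. Cfl2, the muscle cofilin, lay at 6.93 and 8.06 TPM, so the non-muscle form was 102 ± 9 times as high. Dstn (destrin, the third member of this family and not in the list) lay between them at 175 and 211 TPM.

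The helpers of cofilin were lower. Cap1, a cyclase-associated protein that releases actin from cofilin, had 53.3 and 58.6 TPM, and Wdr1, which speeds severing by cofilin, had 53.5 and 50.2 TPM. The twinfilins, which bind monomers and cap ends, were nearly equal, with Twf1 at 20.5 and 18.4 TPM and Twf2 at 19.6 and 19.2 TPM. Limk1 and Limk2, kinases that switch cofilin off, reached 5.78 and 6.33 TPM and 7.17 and 7.06 TPM. Ssh1, a phosphatase that switches it on again, had 2.03 and 1.86 TPM, and its relative Ssh2, outside the list, had 10.6 and 11.1 TPM.

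All subunits of the Arp2/3 complex were well expressed but at unequal levels. With the paralogs of a subunit added together, Arpc2 led at 330 and 378 TPM, followed by Actr3 (Arp3) at 244 and 272 TPM. The Arpc5 pair came next at 139 and 159 TPM, then the Arpc1 pair at 133 and 129 TPM and Arpc3 at 117 and 119 TPM. The 2 lowest were Actr2 (Arp2) at 87.8 and 98.2 TPM and Arpc4 at 72.0 and 86.6 TPM. This order was the same in both libraries, and the 2 values of a subunit never overlapped those of its neighbour in the order. It depended in part on which transcripts were counted. With protein-coding transcripts alone, Arpc1b had 79.8 and 72.6 TPM and Arpc1a 28.5 and 24.7 TPM. Arpc3 then had 116 and 118 TPM, above the Arpc1 pair summed in each library. The highest subunit exceeded the lowest by 4.48 ± 0.15 times, although the assembled complex holds 1 copy of each.

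**Figure D2:**
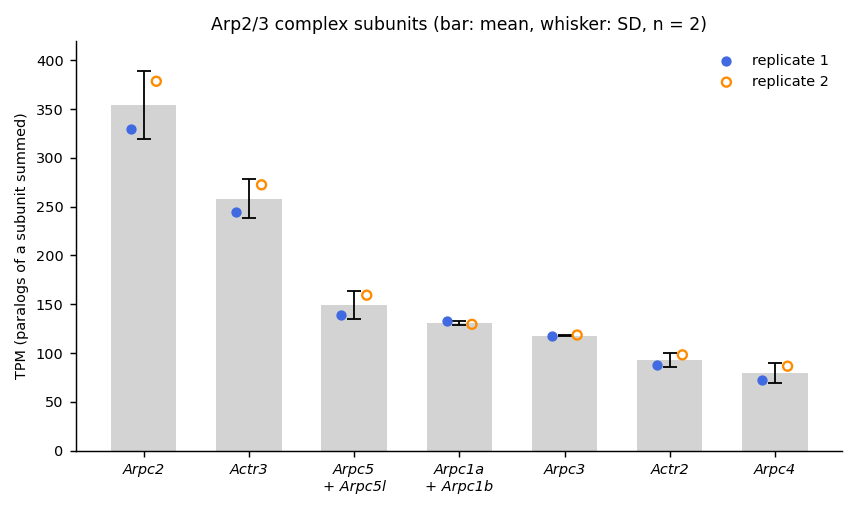
Level in TPM of each Arp2/3 subunit, with the paralog pairs Arpc5 and Arpc5l and Arpc1a and Arpc1b summed. Bars are means and whiskers the SD of 2 libraries; points are the libraries, from Arpc2 at 330 and 378 TPM down to Arpc4 at 72.0 and 86.6 TPM.

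For the subunits with a pair of genes, the same paralog led in both libraries. Arpc1b, which is mutated in a human immune deficiency with platelet defects, stood at 99.8 and 99.4 TPM, and Arpc1a at 32.8 and 30.0 TPM. Arpc5 stood at 108 and 124 TPM and Arpc5l at 31.0 and 35.5 TPM. The ratio of Arpc5 to Arpc5l was 3.49 ± 0.01 and that of Actr3 to Actr2 was 2.78 ± 0.005. Part of the Arpc1b value is uncertain, because 42.2% of the 50-base windows of its leading transcript also occur in other genes, including its neighbour Pdap1.

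The activators of the Arp2/3 complex in the list, Wasf2 and Was, summed with Wipf1 to 98.2 and 100.3 TPM. The 9 genes of the complex summed to 1123 and 1243 TPM, although Wasf2 alone exceeded Arpc1a and Arpc5l. Wasf2, the WAVE protein found in most cells, had 51.0 and 56.1 TPM. Was, the Wiskott-Aldrich syndrome protein, whose loss causes immune deficiency with small platelets in humans, had 31.2 and 30.3 TPM. Wipf1, which binds and stabilizes it, had 16.1 and 14.0 TPM. From the other genes of the pathway, the blood-cell form of the WAVE complex subunit Nckap1l had 25.5 and 27.0 TPM, Cyfip2 had 50.1 and 50.2 TPM and Cyfip1 had 19.2 and 18.3 TPM. The small subunit Brk1 had 101 and 98.8 TPM and Abi1 had 34.0 and 34.4 TPM. Wasl, the widely expressed relative of Was, had 7.91 and 8.17 TPM, and Wasf3 was at a count of 0 in both libraries.

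The formins, which nucleate and extend unbranched filaments, were of moderate and steady level. Diaph1 (mDia1) had 35.7 and 34.1 TPM, Fmnl1, a formin of leukocytes, 30.3 and 31.5 TPM, Diaph3 18.0 and 18.6 TPM and Diaph2 16.3 and 16.4 TPM. Diaph1 and Fmnl1 did not overlap each other, and Diaph3 lay above Diaph2 in both libraries. Of the other formins of the pathway list, Daam1 (5.73 and 6.21 TPM), Fmnl2 (5.11 and 5.64 TPM) and Fmnl3 (4.73 and 4.78 TPM) were the next highest. In the Ena/VASP family, whose members extend filament ends, Vasp had 20.4 and 19.3 TPM, Evl had 4.79 and 5.54 TPM and Enah had 1.46 and 1.05 TPM. The order Vasp, Evl, Enah held in both libraries without overlap.

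Coronins, which limit branching and help cofilin, were led by the leukocyte form. Coro1a (ENSMUSG00000030707.11, chromosome 7, 126699773 to 126707787, minus strand) stood at 107 TPM in replicate 1 and 152 TPM in replicate 2. Coro1b stood at 53.4 and 56.8 TPM and Coro1c at 24.4 and 26.5 TPM. All 3 were higher in replicate 2, Coro1a by far the most, and the order of the 3 was the same in both libraries.

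Capping protein, a pair of 1 alpha and 1 beta subunit, was abundant. Capzb, its beta subunit, stood at 171 and 170 TPM. The 2 alpha subunits Capza1 (111 and 122 TPM) and Capza2 (114 and 135 TPM) overlapped in level, with Capza2 the higher in each library. Summed, they exceeded Capzb by 1.32 times in replicate 1 and 1.52 times in replicate 2. Tmod3, which caps the slow-growing end, had 21.1 and 21.0 TPM. The gelsolin family genes in the list were lower. Capg, a capping protein of macrophages, had 10.5 and 10.1 TPM, and Gsn, the severing protein gelsolin that is plentiful in platelets, had 2.76 and 3.99 TPM. Of their relatives outside the list, Flii had 25.8 and 33.2 TPM and Svil 12.6 and 13.1 TPM, both above Capg. Scin had 0.73 and 1.21 TPM, Vil1 0.01 and 0 TPM and Avil 0 and 0.02 TPM.

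The crosslinkers were led by the leukocyte plastin. Lcp1 (L-plastin, ENSMUSG00000021998.12, chromosome 14, 75131101 to 75230842, plus strand) stood at 216 and 248 TPM, while Pls3 (T-plastin) stood at 1.39 and 1.78 TPM, a ratio of 147 ± 12. Flna (filamin A, which links actin to membrane receptors) had 64.7 and 81.0 TPM. Actn4 had 35.7 and 35.8 TPM, and Actn1, the alpha-actinin that predominates in platelets and is mutated in an inherited low platelet count in humans, had 5.64 and 6.41 TPM. All 5 crosslinkers were higher in replicate 2, Actn4 by the least, and no pair of them overlapped.

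A single tropomyosin gene made up most of its family. Tpm3 (ENSMUSG00000027940.14, chromosome 3, 90072649 to 90100902, plus strand) stood at 212 and 215 TPM and held 86.3% ± 0.5 of the family's TPM. Tpm1 had 18.0 and 13.8 TPM, Tpm4, a tropomyosin of platelets that is reduced in an inherited macrothrombocytopenia of humans, had 15.5 and 19.2 TPM, and Tpm2 had 1.23 and 0.29 TPM. The values of Tpm1 and Tpm4 overlapped, and the higher of these 2 differed between the libraries. The ERM proteins, which tie actin to the plasma membrane, were led by Msn (moesin) at 105 and 107 TPM, with Rdx at 38.0 and 38.2 TPM and Ezr at 18.6 and 18.2 TPM. None of the 3 overlapped another.

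Set side by side, 18 groups of related genes could be asked which member led. In 17 of them the same gene had the highest TPM in both libraries. The exception was the twinfilins, of whose TPM Twf1 held 51.1% in replicate 1 and 48.9% in replicate 2. The leading gene held nearly all of its family in the plastins (Lcp1, 99.3%) and the cofilins (Cfl1, 99.0%). It held 85.6% in the alpha-actinins (Actn4), 83.9% in the thymosins (Tmsb4x), 77.7% in the Arpc5 pair and 76.0% in the Arpc1 pair (Arpc1b). The families closest to an even split, besides the twinfilins, were Capza2 with 51.5% and Limk2 with 54.05%, and Diaph1 held 50.2% among 3 diaphanous formins. For the LIM kinases the leader depended on which transcripts were counted. With protein-coding transcripts alone, Limk1 exceeded Limk2 in both libraries (4.30 and 5.51 against 4.10 and 4.46 TPM), and the leader of the Capza pair then differed between the libraries.

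**Figure D3:**
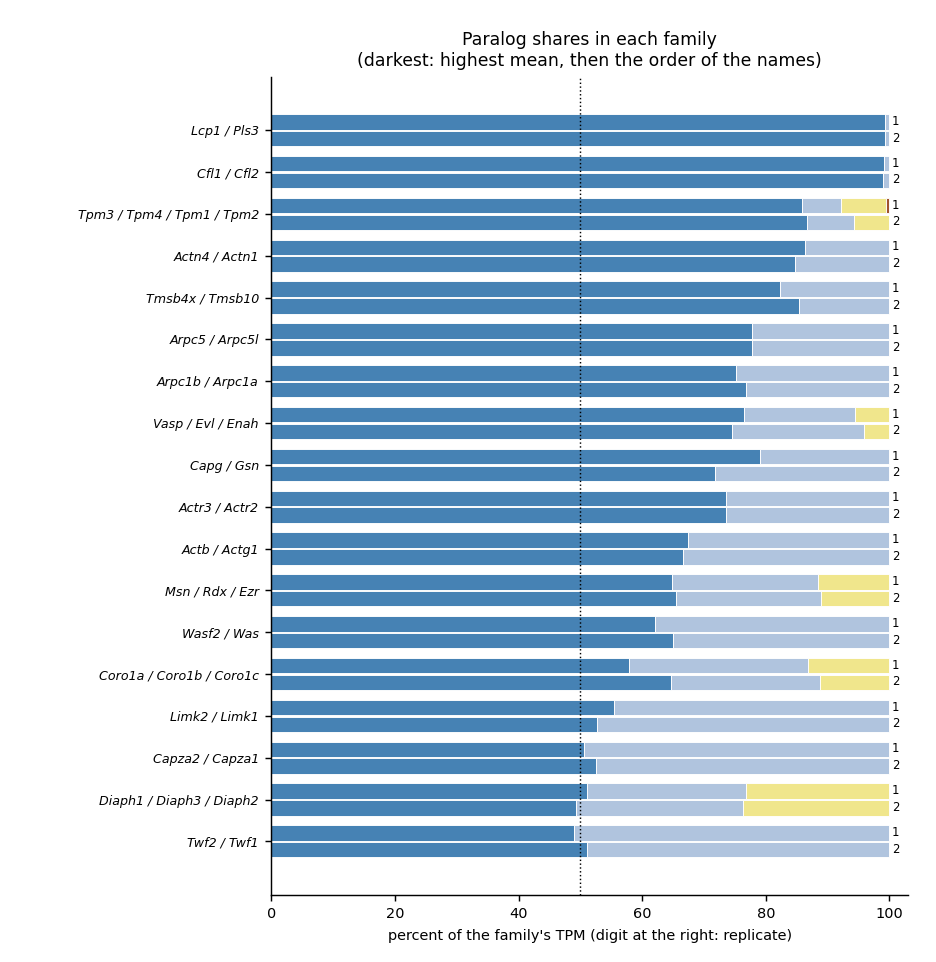
Share of each family's summed TPM held by each paralog, in percent, with 1 bar per library (replicate number at the right) and the paralogs drawn in the order of the names, darkest first. Families run from Lcp1 and Cfl1, near 99%, to the Capza, diaphanous and twinfilin families, whose leading gene lies near the dotted line at 50%.

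Most members had similar levels in the 2 libraries, while a few low ones and the abundant Tmsb4x and Coro1a differed more. The ratio of replicate 2 to replicate 1 was computed on counts scaled to library size by TMM, a normalization that sets the bulk of genes to no change. An absolute log2 ratio of 0.5 or more was reached by 3 of 54 members, against 21.5% of the 14198 genes past the filter on low counts. Among the 44 members of 10 TPM or more it was reached by 0, against 3.61% of the 5740 genes at that level, and 39 of the 44 lay within 0.25 of no change. The share within 0.25 is not given for all genes. The median absolute log2 ratio of these 44 was 0.15, and that of all genes of 10 TPM or more was 0.12. By this measure the members were no steadier than other genes of that level. With 2 libraries of 1 group no test of these differences was made.

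The 3 members past that ratio were among the lowest. Tpm2 had 81 and 22 reads (log2 ratio -1.65, 3.14 times as high in replicate 1). Enah had 362 and 206 reads (log2 ratio -0.66). Gsn had 432 and 579 reads (log2 ratio 0.57, 1.48 times as high in replicate 2). The next largest were Tmsb4x with 0.49 and Coro1a with 0.48, backed by 41489 and 52697 reads and by 6493 and 8190 reads, and Tpm1 with -0.40. On the ratio of TPM with a pseudocount of 1, Coro1a passed the threshold with 0.51, and Enah and Gsn did not.

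Seen as a whole, 39 members were higher in replicate 2 and 15 in replicate 1, with a median log2 ratio of 0.10, against 0.00 over all genes past the filter and 0.03 over genes of 10 TPM or more. By role, both actins, all 3 coronins, all 5 crosslinkers, all 3 ERM genes, 7 of 9 Arp2/3 genes and 5 of 6 capping and severing genes were higher in replicate 2. By deposited TPM, whose total is fixed, 35 members were higher in replicate 2 and 19 in replicate 1, and the counts were the same for the actins, coronins, crosslinkers and Arp2/3 genes, but 2 of 3 for the ERM genes and 3 of 6 for capping and severing. The tropomyosins were split on both scales, with 2 higher in each library. The share of all genes that were higher in replicate 2 is not given here on either scale, so these counts describe the members only. Markers of other cell types also differed between the libraries. The summed granulocyte, monocyte and erythroid lists are given above. Within the granulocyte and erythroid lists the markers did not all differ in 1 direction. In the granulocyte list, S100a8 had 1313 and 2377 TPM, but Mpo had 6306 and 5478 TPM and Elane 3661 and 2759 TPM. In the erythroid list, Car1 had 512 and 242 TPM, but Hbb-bs had 6.87 and 18.4 TPM and Slc4a1 0.47 and 0.85 TPM. In the monocyte list, all 5 markers at 1 TPM in both libraries were higher in replicate 2, such as Irf8 with 33.5 and 49.3 TPM. Only C1qa (13 and 5 reads) and C1qb (19 and 2 reads), both far below 1 TPM, were lower there. The part of all these markers in the ratios of the members was not tested.

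**Figure D4:**
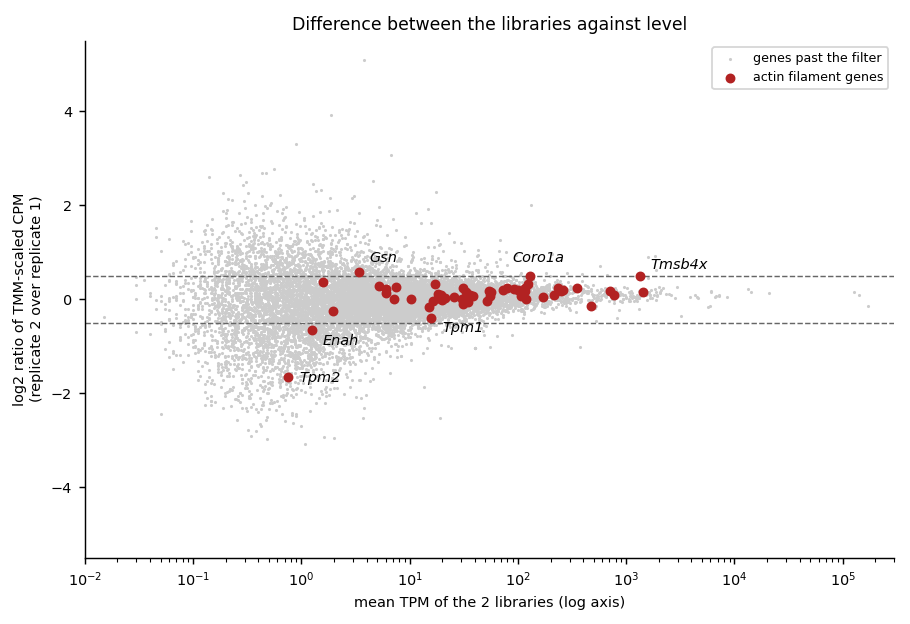
Log2 ratio of replicate 2 to replicate 1 (TMM-scaled counts) against mean TPM on a log axis, for every gene past the filter (grey) and the 54 actin filament genes (red). Dashed lines mark an absolute log2 ratio of 0.5; Tpm2, Enah and Gsn, all of low level, lie beyond them, and Tmsb4x and Coro1a lie just inside.

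At the level of transcripts, 49 members were led by a protein-coding transcript, 3 by a transcript of another type and 2 by a transcript that is absent from, or of another length in, the annotation release used for transcript types. Protein-coding transcripts held 90% or more of TPM for 38 members. In 8 members other types held 20% or more, namely Enah, Flna, Coro1c, Coro1a, Limk2, Tpm1, Diaph2 and Arpc1b. Actb rested on 1 transcript (ENSMUST00000100497.6, 99.3% and 99.1% of its TPM). Actg1 divided between 2 transcripts of the same reading frame length, ENSMUST00000106215.6 with 70.8% and 72.0% and ENSMUST00000071555.8 with 28.1% and 22.4%. Gsn (ENSMUST00000028239.6) and Actn1 (ENSMUST00000021554.10) were assigned to 1 transcript each, with 100% in both libraries. That Gsn transcript has 780 coding codons. Actn4 gave 91.4% and 94.7% to ENSMUST00000068045.9.

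Tropomyosin genes make long and short proteins, and Tpm3 and Tpm4 were led by short ones of 248 codons. ENSMUST00000029549.11 held 83.3% and 84.4% of Tpm3, and ENSMUST00000003575.9 held 100% and 97.1% of Tpm4. Tpm2 was led by ENSMUST00000107914.5, of 284 codons, with 96.04% and 68.21%, on 75.1 and 11.8 reads. In Tpm1 the share moved between the libraries. ENSMUST00000113696.3, of 248 codons, held 47.6% in replicate 1 and 19.5% in replicate 2. ENSMUST00000139046.3, annotated as a target of nonsense-mediated decay, held 19.7% and 38.7%, and ENSMUST00000113695.3, also of 248 codons, held 18.7% and 26.1%. These Tpm1 shares rest on 839 and 244 reads for the first and 282 and 394 reads for the second.

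A pair of coding transcripts shared Tmsb4x and exchanged the lead. ENSMUST00000112176.3, with 50 codons, held 46.6% in replicate 1 and 56.6% in replicate 2, and ENSMUST00000112172.3, with 44 codons, held 52.9% and 43.1%. In TPM the first went from 521 to 872 and the second from 592 to 664, so the first accounted for most of the higher Tmsb4x level of replicate 2. Capzb was steadier, with ENSMUST00000102508.5 (272 codons) at 56.4% and 54.5% and ENSMUST00000042675.7 (260 codons) at 40.7% and 43.2%. In Arpc3, ENSMUST00000102525.6 (178 codons) held 77.07% and 59.97%. Twf2 gave 53.6% and 65.0% to ENSMUST00000188650.1 (347 codons) and 39.6% and 35.0% to ENSMUST00000024047.7 (349 codons). Tmsb10 gave 82.8% and 94.1% to ENSMUST00000114050.3, and the leading transcripts of Arpc4 (ENSMUST00000102708.6, 64.5% and 74.2%) and Arpc5l (ENSMUST00000090993.5, 71.9% and 60.7%) had no type that could be used.

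For Coro1a and Flna, transcripts not annotated as coding held about as much TPM as the coding ones or more. A retained-intron transcript of Coro1a, ENSMUST00000133718.3, of 602 bases, held 49.8% and 55.1% of its TPM, and the coding transcript ENSMUST00000032949.9, of 1660 bases, held 48.2% and 43.5%. In reads the coding transcript had more, 4854 and 5814 against 1527 and 2250. In coding transcripts alone Coro1a stood at 52.3 and 67.3 TPM. For Flna a processed transcript of 738 bases, ENSMUST00000156766.3, held 26.8% and 38.6% of TPM on 645 and 1084 reads, and the coding ENSMUST00000101454.4, of 8345 bases, held 25.3% and 23.4% on 8344 and 8963 reads. Coding transcripts of Flna summed to 33.4 and 25.5 TPM, which was lower in replicate 2, whereas the gene as a whole was higher there. Coro1c likewise gave 57.9% and 51.4% of its TPM, on 35.0% and 18.6% of its reads, to transcripts of other types.

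**Figure D5:**
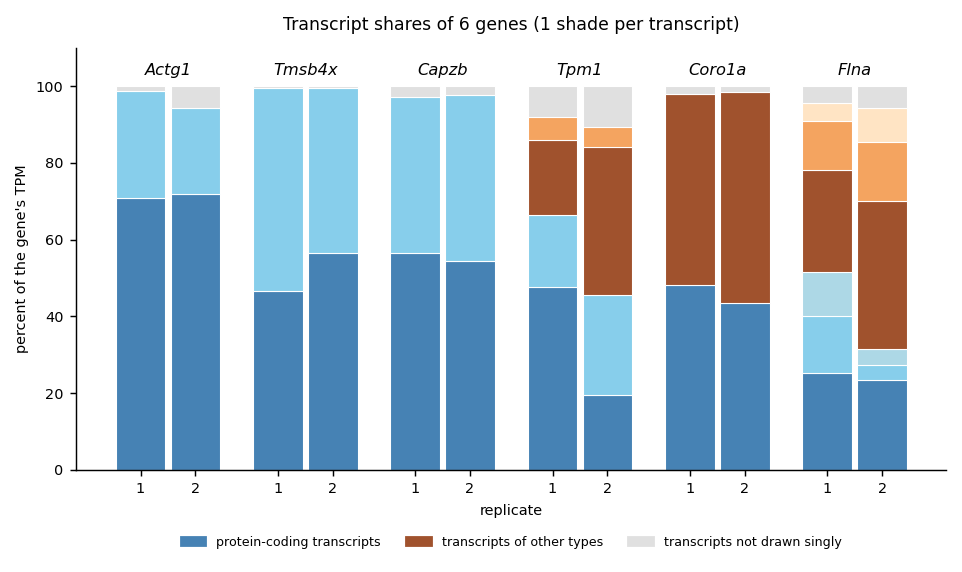
Share of each gene's TPM assigned to its transcripts, in percent, for 6 genes in replicates 1 and 2; blue shades are protein-coding transcripts, brown shades other types, and grey the transcripts of under 5% on average. Actg1 and Capzb differ little between the libraries, the 2 coding transcripts of Tmsb4x exchange the lead, and Coro1a and Flna hold large shares of other types.

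Copies of these genes elsewhere in the genome limit some values. For 25 members no 50-base window of the leading transcript occurred in a transcript of another gene, among them Pfn1, Tmsb4x, Arpc3, Capza2, Capzb, Gsn and Msn. The 25 also include Coro1a, Flna and Enah, whose leading transcripts, of 602, 738 and 739 bases, are not annotated as coding. Their coding transcripts were not searched. Arpc5l, also among the 25, was searched as a sequence of 752 bases, although the quantified transcript has 1271. The share of windows found in other genes was 77.4% for Capza1, 66.8% for Tpm3, 63.5% for Tmsb10, 60.7% for Actg1 and 50.02% for Actr3, chiefly in processed pseudogenes or retrogenes. The pseudogene Gm12715, which shares 54.7% of the Actg1 windows, was given 8.36 and 8.99 TPM. Tpm3-rs7, which shares 66.8% of the Tpm3 windows, was given 4.43 and 4.97 TPM, and Gm3608, which shares 73.3% of those of Capza1, 2.06 and 2.76 TPM. These values were small beside those of the parent genes. Gm3788, a short pseudogene of Tmsb10, was given 74.2 and 77.4 TPM on 81.5 and 83.7 reads. How the reads were divided between these copies was not tested. Overlapping neighbours add to this, since the use of strand in counting is unknown. Arpc5l overlaps Rpl35 (260 and 278 TPM) by 277 bases on the opposite strand, and Coro1b overlaps Ptprcap (38.7 and 32.9 TPM) by 432 bases on the same strand.

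Serum response factor controls many cytoskeletal genes through a motif called the CArG box and is switched on when free actin is used up. A CArG box, searched on both strands, lay in 2 of the 48 member promoters for which RefSeq (GRCm38.p6) gave a sequence from 250 bases before to 50 after the start. That is 4.17%, against 1.81% of 27025 genes. Actg1 has CCATATATGG with its first base 90 bases before the start, and Arpc4 has CCTAATTTGG at 250 bases before. A match is a description of the letters only. The factor itself, Srf, stood at 7.31 and 8.96 TPM, and its actin-sensing partners Mrtfa and Mrtfb stood at 11.2 and 11.2 TPM and 4.72 and 4.83 TPM.

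Among 75 other genes of the pathway, 42 reached 1 TPM in both libraries, and the median lay at 3.65 TPM. The 6 highest were Arhgdib at 1059 and 1158 TPM, Cdc42 at 251 and 272 TPM, Rac1 at 190 and 202 TPM, Dstn, Arhgdia at 165 and 174 TPM and Gmfg, a debranching factor of blood cells, at 155 and 162 TPM. Rac2, the Rac of blood cells, had 114 and 131 TPM, and Rhoa 105 and 122 TPM. Of 51 past the filter, 5 passed an absolute log2 ratio of 0.5, against 21.5% of all genes. Scin (0.65) and Tmod4 (1.10) were higher in replicate 2, and Nckap1 (-1.95), Cttn (-1.85) and Pfn2 (-1.33) were higher in replicate 1. Each of the 5 had a mean of 2.13 TPM or less. In the paralog families of members, Pfn2 had 2.93 and 1.33 TPM, Tmod1 0.38 and 0.30 TPM, Actr3b 0 and 0.15 TPM, and Pls1 0.05 and 0.02 TPM. Pfn3, Flnc, Coro6, Capza3, Lmod1 and Wipf3 were at a count of 0 in both libraries.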

How the data were processed

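Per the file lists deposited with the samples, reads were aligned to mm10 and quantified against GENCODE M4, each library on its own. Column names are those RSEM writes; for the aligner, quantifier version and strand setting, the sources used here give nothing. The deposited expected counts are estimated reads, not normalized, with a read that fits several features divided among them. The authors' TPM and FPKM are scaled by effective length and library, and TPM over every row, so abundant mitochondrial and ribosomal RNA lowers the TPM of other genes. The deposited score columns hold credibility bounds of TPM of unstated level. The deposited percent columns give each transcript's part of its gene's TPM. The 2 libraries form 1 group; expected counts totalled 82746658 and 75652762, and rows with no Ensembl gene held 0.0031% and 0.00295% of them. Counting limits (3 reads) cover counting error only, since PCR copies are not independent molecules.

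From these files, symbols, positions and transcript types were taken from GENCODE M21 (GRCm38), and a transcript whose length differed by over 10% there got no type. Expected counts were rounded and scaled with TMM in edgeR 4.0.16 (R 4.3.3), with filterByExpr and a prior count of 2, and DESeq2 1.42.0 size factors were an alternative. The computation was checked on simulated data of 43346 genes, in which 200 of 200 genes with 2-fold changes were recovered. The changed genes were drawn from the well-counted ones, with counting noise alone. It therefore checks the arithmetic and not the recovery of genes with few reads. Shared sequence was counted as 50-base windows. Coding sequences are those of the highest coding transcript in M21, and promoters come from RefSeq. Members, gene lists, families and the rule for named transcripts (20% or more of TPM in 10 chosen genes and in the 6 other genes of 10 TPM or more whose leading share differed most) were chosen with earlier results of these data known. The other alternatives were FPKM, posterior mean TPM, TPM rescaled without the abundant RNAs, other thresholds, each library alone, and, added after the data were seen, protein-coding transcripts alone. No p-value was computed. Some results are not reported here.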

Additional observations from a re-analysis of the deposited data

How the results depend on the processing

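The number of members at 1 TPM in both libraries was 52 with FPKM and 51 with protein-coding transcripts alone. It was 53 or 54 in the other settings with that threshold, and 48 members reached 5 TPM. With protein-coding transcripts alone Arpc5l stood at 0 TPM. Of its TPM, 94.2% and 96.4% lay in transcripts without a usable type, and the rest in other types. The median of 35.3 TPM was 26.7 in FPKM, 77.3 with TPM rescaled without the abundant RNAs, 35.02 with posterior means, 30.04 with protein-coding transcripts alone, and 35.65 to 35.70 in the single libraries. The summed level was 6004 in FPKM and 17370 rescaled, a scale set by construction. Past the fold were 1 member at an absolute log2 ratio of 1 and 11 at 0.25, and 2 or 3 under the other scalings, filters and transcripts. The median log2 ratio lay between 0.05 and 0.10. The families with a steady leader numbered 17, or 16 with protein-coding transcripts alone. Leading shares moved past the spread between libraries in 15 of 18 families when reads were not divided by length, and in 3 of 34 shares of paralogs and transcripts with posterior means. A ratio between the libraries cannot be formed without either of them. No paired analysis was possible because there is 1 group.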

Other observations

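Several low genes with a more highly expressed relative had more reads in replicate 1. Nckap1, the WAVE complex subunit of non-blood cells, had 648 and 150 reads, Cttn (cortactin) 190 and 46, Pfn2 182 and 64, and Tpm2 81 and 22. Their relatives had log2 ratios (replicate 2 over replicate 1) of 0.12 for Nckap1l, 0.47 for Hcls1, -0.14 for Pfn1 and 0.08 for Tpm3, against -1.95, -1.85, -1.33 and -1.65 for the 4 low genes. In the same direction, Gata1 had 1184 and 454 reads, whereas Itga2b had 219 and 180 reads and Itgb3 292 and 302 reads. Other low genes with a more highly expressed relative had more reads in replicate 2, among them Pls3 (260 and 303), Cfl2 (1207 and 1303) and Evl (531 and 581). The genes named here were picked after their values were seen, and their relation to each other was not tested.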
